A study of Mus musculus with 8 samples.

Results

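Among 12160 genes counted in immortalized mouse pancreatic stellate cells (PSCs), 9 genes of retinoid handling and stellate cell quiescence were selected by name, and 6 of the 9 were analysed: Des, Crabp1, Crabp2, Rarb, Dhrs3 and Plin2. Lrat, Stra6 and Cyp26b1 were not analysed here. Dhrs3, which encodes a reductase that turns retinal back into retinol, was lowest with growth medium, higher with medium from control cancer organoids and highest with medium from Brca2-silenced cancer organoids. Rarb, Plin2 and Des had their highest mean with the latter medium, Rarb and Des on low counts. Crabp2 was higher with growth medium than with either conditioned medium, by an amount that depended on which growth medium library was used.

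PSCs are fibroblast-like cells of the pancreas. In the resting state they store vitamin A as retinyl esters in lipid droplets, and they lose these droplets when they become activated. Retinol enters the cell and is either esterified for storage or oxidised through retinal to retinoic acid. Retinoic acid is carried by the CRABP proteins, acts on retinoic acid receptors paired with rexinoid receptors, and is cleared by CYP26 enzymes. Rarb, Dhrs3 and the Cyp26 genes are known targets of this signal in many cells, so that the pathway restrains itself.

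All cells were immortalized PSCs embedded in growth factor reduced Matrigel as 3D domes, given growth medium (DMEM with serum) for 4 days and then 1 of 3 media for 4 more days. In the first group (shBrca2-CM, n = 3) this was medium conditioned by KPC organoids, a 3D culture of mouse pancreatic cancer cells, in which Brca2 was silenced by a lentiviral shRNA. In the second group (shControl-CM, n = 3) the KPC organoids carried a non-targeting shRNA. The third group (n = 2) is called growth medium here; its titles name DMEM, whereas its recorded treatment names medium that PSCs had conditioned themselves. Each group therefore rests on 1 immortalized line, and nothing in the labels ties the domes to separate animals. The PSCs themselves carried no shRNA, so Brca2 was targeted in the organoids and not in the cells sequenced. The paper gives less serum in the medium collected from organoids than in growth medium. Comparisons with growth medium may therefore also differ in serum, and the part of serum was not tested.

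Libraries of mRNA 3′ ends held 4623846 and 5476988 counts for growth medium, 1093609 to 1624392 for shControl-CM and 655996 to 1095534 for shBrca2-CM. Depth thus moved with the group, and 3 counts, taken as the floor, correspond to 4.34 CPM (counts per 1e+06 counts of a library) for the smallest library and to 0.521 CPM for the largest. These floors and all levels below are CPM after TMM scaling (edgeR's trimmed mean normalisation of library sizes). All 9 fibroblast markers examined were present. Their summed level was 5039 to 6002 CPM in growth medium, 4052 to 4375 CPM in shControl-CM and 3036 to 3144 CPM in shBrca2-CM. Vim alone measured 3396 and 4115 CPM with growth medium, and had means of 361 and 586 CPM with shControl-CM and shBrca2-CM. Against growth medium, 4 of the 9 were higher and 3 lower with each conditioned medium. Between the conditioned media 1 of the 9 was higher and 3 were lower with shBrca2-CM. Of the markers of other cell types, 3 of 10 epithelial, 3 of 7 immune, 2 of 6 endothelial, 1 of 6 adipocyte, 1 of 6 muscle and 2 of 4 glial genes were analysed. The summed epithelial level was 37.0 to 41.7 CPM in growth medium, 57.7 to 70.6 CPM in shControl-CM and 59.3 to 94.1 CPM in shBrca2-CM. In the same order, the only adipocyte marker analysed, Retn, ranged from 5.37 to 8.52, from 66.6 to 85.6 and from 38.6 to 48.8 CPM, and the summed immune markers from 9.46 to 11.5, from 23.7 to 36.0 and from 13.0 to 26.6 CPM. Of the 3 immune genes, Cd68 and Csf1r were higher with shControl-CM than with growth medium, and Cd68 with shBrca2-CM. The endothelial, muscle and glial sums did not exceed 4.94 CPM in any library. Krt18 and Muc1 were higher and Krt19 lower with each conditioned medium than with growth medium. The part of other cell types in the results was not tested. In bulk libraries, fewer cells of a kind and less RNA per cell cannot be told apart.

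A gene was called when its adjusted p-value (edgeR's quasi-likelihood test, Benjamini-Hochberg over all genes tested) was under 0.1, its absolute log2 fold change was over 0.5 and its mean normalized count was over 5. Between shBrca2-CM and shControl-CM, 1 of the 6 genes was called, Dhrs3, which was higher with shBrca2-CM. Over the 11035 genes tested this share was 3.13% in either direction and 1.58% for higher. With shControl-CM against growth medium 2 of 6 were called, 1 higher and 1 lower, where the share over 12086 genes was 37.1% (18.2% higher and 18.9% lower). With shBrca2-CM against growth medium 5 of 6 were called, where the share over 12049 genes was 37.8%. In that comparison 4 of 6 were higher and 1 of 6 lower, with 18.6% of all genes higher and 19.2% lower. The median log2 fold change of the 6 genes was 0.54, 0.62 and 1.09 in these comparisons, against 0.03, -0.10 and -0.05 over all genes. Values of the groups did not overlap for 3, 4 and 5 of the 6 genes, as for 19.8%, 59.9% and 57.4% of all genes. The comparisons against growth medium share the same pair of control libraries and are not independent of each other.

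**Figure D1:**
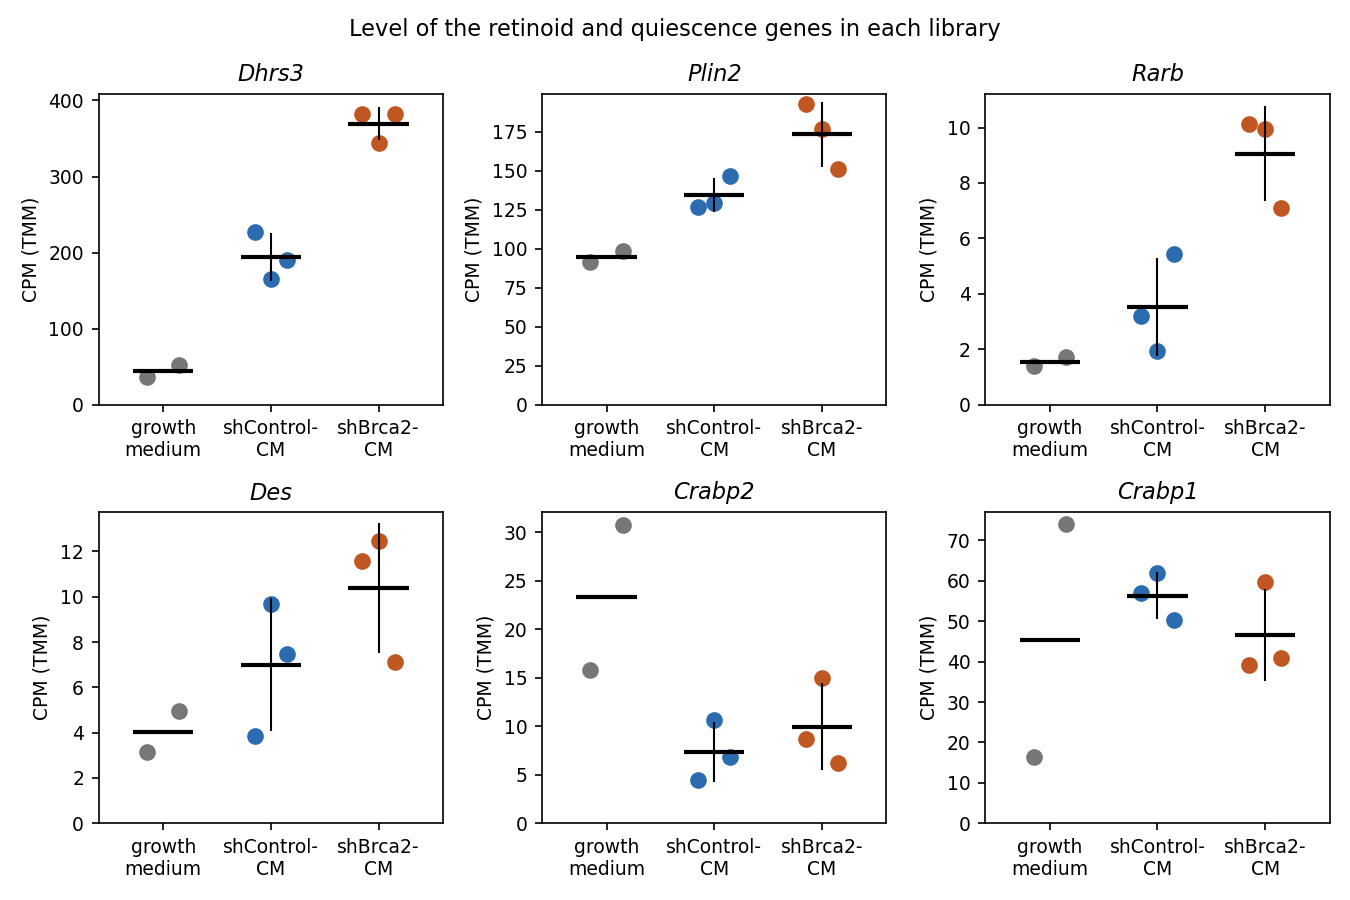
Each panel shows one gene, with the level in CPM after TMM scaling on the vertical axis from 0 and the group on the horizontal axis; points are libraries, thick lines are means and thin bars are SD (drawn for the groups of 3). Dhrs3 separates all 3 groups, from 35.8 and 52.0 CPM with growth medium to 345 CPM or more with shBrca2-CM, and the growth medium points of Crabp1 lie on both sides of the other groups.

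The regulatory sequence of Rarb is shown because this gene carries, just before its start, the paired receptor half-site long described as a retinoic acid response element, and the same arrangement stands before Cyp26a1, the enzyme that clears retinoic acid. The RefSeq promoter table (GRCm38.p6) held a window of 250 bases before to 50 after the start for 8 of the 9 genes. The 100 bases before the annotated start of each gene are given 5′ to 3′ on the strand of the gene, with only the paired half-sites in capitals (Rarb also holds a single half-site 83 to 78 bases before its start, left in lower case). For Rarb they are chr14:16575477-16575576 on the minus strand, and this start lies inside the annotated span of the gene. For Cyp26a1 they are chr19:37697708-37697807 on the plus strand, where the pair reads on the opposite strand.
Rarb: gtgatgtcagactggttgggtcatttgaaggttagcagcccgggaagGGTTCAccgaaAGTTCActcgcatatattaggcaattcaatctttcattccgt
Cyp26a1: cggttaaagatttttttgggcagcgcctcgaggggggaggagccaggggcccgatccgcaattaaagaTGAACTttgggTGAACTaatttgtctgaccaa

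Read along their own strand, the pairs compare as follows, with the half-sites in capitals and the 5-base spacer in lower case.
Rarb pair: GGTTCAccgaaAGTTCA
Cyp26a1 pair: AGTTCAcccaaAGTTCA

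These pairs were identical at 15 of 17 positions and differed by G1A and G9C, with the base of Rarb first and positions counted from the 5′ end of the pair. The Rarb pair spans chr14:16575513-16575529, 53 to 37 bases before the start, and the Cyp26a1 pair spans chr19:37697776-37697792, 32 to 16 bases before it. The search used the common half-site AGGTCA and its variants on both strands, as direct repeats 5 bases apart. The variants were AGTTCA, which both genes carry in their second position, GGTTCA, which opens the pair of Rarb, and GGGTCA, which neither pair holds. Such a pair was in 32 of 32851 windows (0.0974%), and these belonged to 31 of 27025 genes. Of the 13 windows of the selected genes, 1 held it, that of Rarb. A single half-site was in 43.7% of all windows. Among the selected genes it occurred in windows of Rarb, Plin2 and Stra6, and none of the 3 windows of Dhrs3 held these letters. Of the 31 genes with a pair, 5 had counts (Rarb, Cyp26a1, Blvrb, Cfap45 and Tnfsf13b). Rarb was the only one of the 5 called with shBrca2-CM against growth medium, Cfap45 the only one with shControl-CM against growth medium, and neither Rarb nor the 3 others tested was called between the conditioned media.

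**Figure D2:**
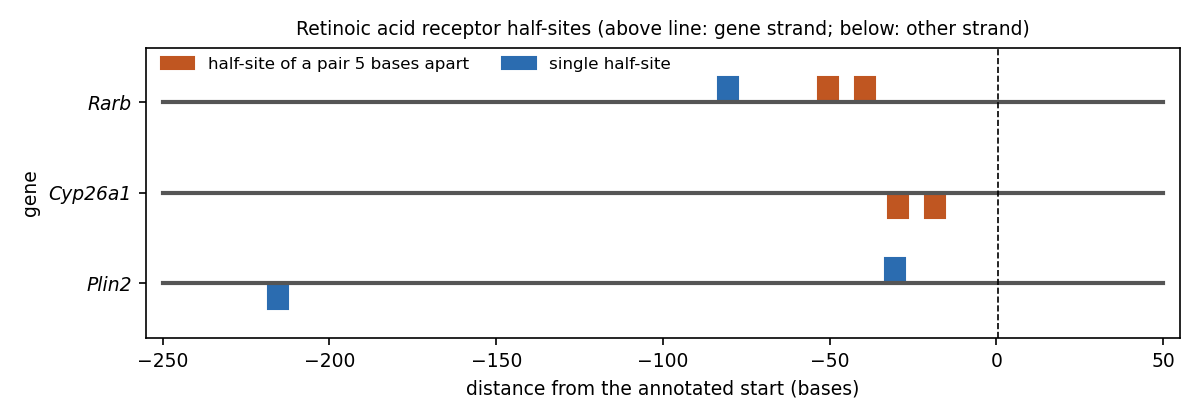
Horizontal lines are the promoter windows of Rarb, Cyp26a1 and Plin2, with the distance from the annotated start in bases on the horizontal axis; boxes above a line are half-sites on the strand of the gene and boxes below it are on the other strand. The paired half-sites of Rarb begin 53 bases before its start and those of Cyp26a1 32 bases before it, while Plin2 has single half-sites only.

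Uptake and binding of retinoids was represented by Crabp1 and Crabp2, small proteins that carry retinoic acid in the cytoplasm. Crabp2, which is known to deliver retinoic acid to the receptors in the nucleus, measured 15.8 and 30.7 CPM with growth medium (91 and 143 counts). With shControl-CM it measured 4.48, 10.6 and 6.79 CPM (7, 11 and 10 counts), and with shBrca2-CM 8.68, 14.9 and 6.21 CPM (6, 12 and 7 counts). Every library with a conditioned medium was below both growth medium libraries, and the conditioned media overlapped with each other. Crabp2 was 3.31-fold lower with shControl-CM than with growth medium (log2 fold change -1.73 ± 0.42 SE, edgeR adjusted p = 0.0118) and 2.39-fold lower with shBrca2-CM (-1.26 ± 0.34 SE, edgeR adjusted p = 0.00212). Both calls were lost without the second growth medium library, at -1.16 (edgeR adjusted p = 0.176) and -0.71 (edgeR adjusted p = 0.120). Between the conditioned media the log2 fold change was 0.48, with a 95% interval from -0.57 to 1.53.

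Crabp1, which binds retinoic acid in the cytoplasm and is linked to its breakdown, measured 16.3 and 74.2 CPM in the growth medium libraries (94 and 345 counts). With shControl-CM it measured 57.0, 61.8 and 50.3 CPM, and with shBrca2-CM 39.1, 59.7 and 40.8 CPM. The conditioned libraries all fell between the growth medium libraries, which differed 4.54-fold from each other. Of the 6368 genes with a mean of at least 100 counts in that pair, none other differed by as much as Crabp1, and 10 genes (0.157%) differed by over 2-fold. The next was Slc16a3 at 3.25-fold, and Col1a1, a collagen chain, differed by 2.25-fold. The ratio of the second to the first library lay between 0.752 and 1.37 for the middle 90 percent of these genes. Crabp2 differed by 1.94-fold, Dhrs3 by 1.45-fold and Plin2 by 1.07-fold.

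The change in Crabp1 against growth medium therefore depended on which control library was used. With both, the log2 fold change was 0.32 ± 0.48 SE with shControl-CM and 0.06 ± 0.29 SE with shBrca2-CM, and neither was called. Without the first growth medium library that of shBrca2-CM was -0.68 (edgeR adjusted p = 0.00487), and without the second it was 1.51 (edgeR adjusted p = 1.99e-07). With shControl-CM it was -0.39 without the first and 1.77 without the second (edgeR adjusted p = 0.0165 for the latter). Between the conditioned media, which do not involve these libraries, the log2 fold change was -0.25, with a 95% interval from -0.71 to 0.21.

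**Figure D3:**
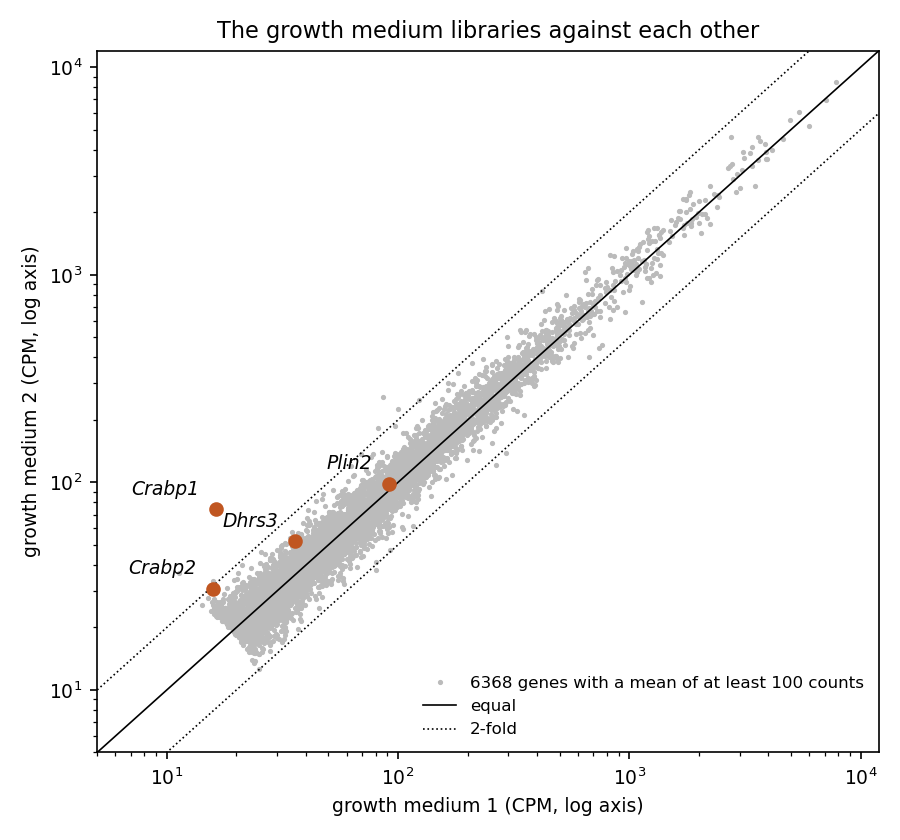
Each grey point is one of 6368 genes with a mean of at least 100 counts, with its CPM in the first growth medium library on the horizontal axis and in the second on the vertical axis (both log axes); the solid line marks equal levels and dotted lines a 2-fold difference. Crabp1 lies above all other genes relative to the line (16.3 against 74.2 CPM), Crabp2 lies just inside 2-fold, and Dhrs3 and Plin2 lie within the cloud.

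Among all genes of retinol uptake and retinoid binding, 6 of 15 were analysed. Against growth medium, 2 rose and 2 fell with shControl-CM, and 1 rose and 1 fell with shBrca2-CM. Rbp4, the secreted carrier of retinol in blood, measured 1.22 and 2.15 CPM with growth medium, 27.6, 39.6 and 23.1 CPM with shControl-CM and 2.89, 7.47 and 7.99 CPM with shBrca2-CM. It rose with both media (log2 fold changes 4.13 and 1.94) and was lower with shBrca2-CM than with shControl-CM (-2.18 ± 0.39 SE, edgeR adjusted p = 0.0115), so that its order over the 3 groups was not that of Dhrs3. Fabp5, a fatty acid carrier that can also bring retinoic acid to the nucleus, had a log2 fold change of 0.89 ± 0.21 SE between the conditioned media, higher with shBrca2-CM (edgeR adjusted p = 0.0533), and fell by 1.13 on the log2 scale with shControl-CM against growth medium.

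Storage of retinol as esters was described by genes other than Lrat. Of the 9 genes listed for ester storage and hydrolysis, 6 were analysed. Against growth medium 3 rose with shControl-CM and 4 rose with shBrca2-CM. Dgat1, an acyltransferase that can also esterify retinol, measured 87.6 and 73.9 CPM with growth medium, and rose by 1.26 and 0.87 on the log2 scale in shControl-CM and shBrca2-CM. Dgat2, which makes triglycerides, rose by 1.85 and 0.68 on the log2 scale and was lower with shBrca2-CM than with shControl-CM (-1.15 ± 0.20 SE, edgeR adjusted p = 0.00813). Lipe, hormone-sensitive lipase, rose by 1.06 and 1.16. Lpl, lipoprotein lipase, was called with shBrca2-CM against growth medium (2.74 ± 0.54 SE) on counts of 9, 8 and 7 against 8 and 6, from libraries of unequal depth.

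Dhrs3 was the only one of the 6 genes called in all 3 comparisons. It measured 35.8 and 52.0 CPM with growth medium, 227, 165 and 190 CPM with shControl-CM (194 ± 31.3, SD, n = 3) and 382, 345 and 383 CPM with shBrca2-CM (370 ± 21.7, SD, n = 3). None of the 3 groups overlapped with another. The log2 fold change was 2.15 ± 0.22 SE with shControl-CM against growth medium, which is 4.43-fold (edgeR adjusted p = 1.18e-04). With shBrca2-CM it was 3.08 ± 0.17 SE, which is 8.48-fold (edgeR adjusted p = 1.17e-23) and ranked 75 from the top of 12049 genes. In shBrca2-CM against shControl-CM it was 0.95 ± 0.14 SE, which is 1.93-fold (edgeR adjusted p = 0.00378), with a 95% interval from 0.64 to 1.26. When all libraries were thinned to the smallest total, Dhrs3 still had 264, 233 and 262 counts with shBrca2-CM, 139, 115 and 117 counts for shControl-CM, and 25 counts in each growth medium library. The annotated span of Dhrs3 overlaps that of Vps13d, whose own level was not called in any of the 3 comparisons (log2 fold changes 0.24, 0.07 and 0.30).

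The other enzymes of retinol and retinal did not follow Dhrs3 as a group. Of 22 listed, 13 were analysed, and Dhrs3 was the only one called of the 12 tested between the conditioned media. With shControl-CM against growth medium 3 of 13 rose and 4 fell, and with shBrca2-CM 2 rose and 5 fell. Rdh10, which makes the forward step from retinol to retinal, measured 6.08 and 7.09 CPM with growth medium, 21.1, 17.4 and 27.2 CPM with shControl-CM and 8.68, 14.9 and 17.8 CPM with shBrca2-CM. The log2 fold change of Rdh10 was 1.74 ± 0.31 SE (edgeR adjusted p = 0.00261) and 1.13 ± 0.35 SE (edgeR adjusted p = 0.00759). Both Rdh10 and Dhrs3 were thus higher with each conditioned medium than with growth medium, and these proteins are known to work as a pair that interconverts retinol and retinal. Between the conditioned media Rdh10 was not called, and its mean was lower with shBrca2-CM (13.8 against 21.9 CPM), unlike that of Dhrs3. Alcohol dehydrogenases, some of which oxidise retinol, fell. The log2 fold change of Adh1 was -3.52 and -3.36 with shControl-CM and shBrca2-CM, and that of Adh5 was -1.14 and -0.996. Adh7 had 3 or fewer counts in every shBrca2-CM library and was at least 3.42-fold lower there than with growth medium.

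Aldh1a1, which turns retinal into retinoic acid, had 28 and 26 counts with growth medium and 0 counts in all 6 libraries with conditioned medium. Against the floor of 3 counts per library this is a fall of at least 1.80-fold for shControl-CM, and for shBrca2-CM the bound is 1.20-fold. Aldh1a2 and Aldh1a3 were not analysed here. Cyp26a1 had 10 and 8 counts with growth medium, which is 1.74 and 1.72 CPM, and 0 counts in the 6 other libraries. With either medium it passed the p and fold thresholds (edgeR adjusted p = 0.0382 with shControl-CM and 0.0407 with shBrca2-CM) but not that on the mean normalized count, and was not called. No fold is given, because its level with growth medium was below the floor of every library with conditioned medium (1.92 to 4.34 CPM).

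**Figure D4:**
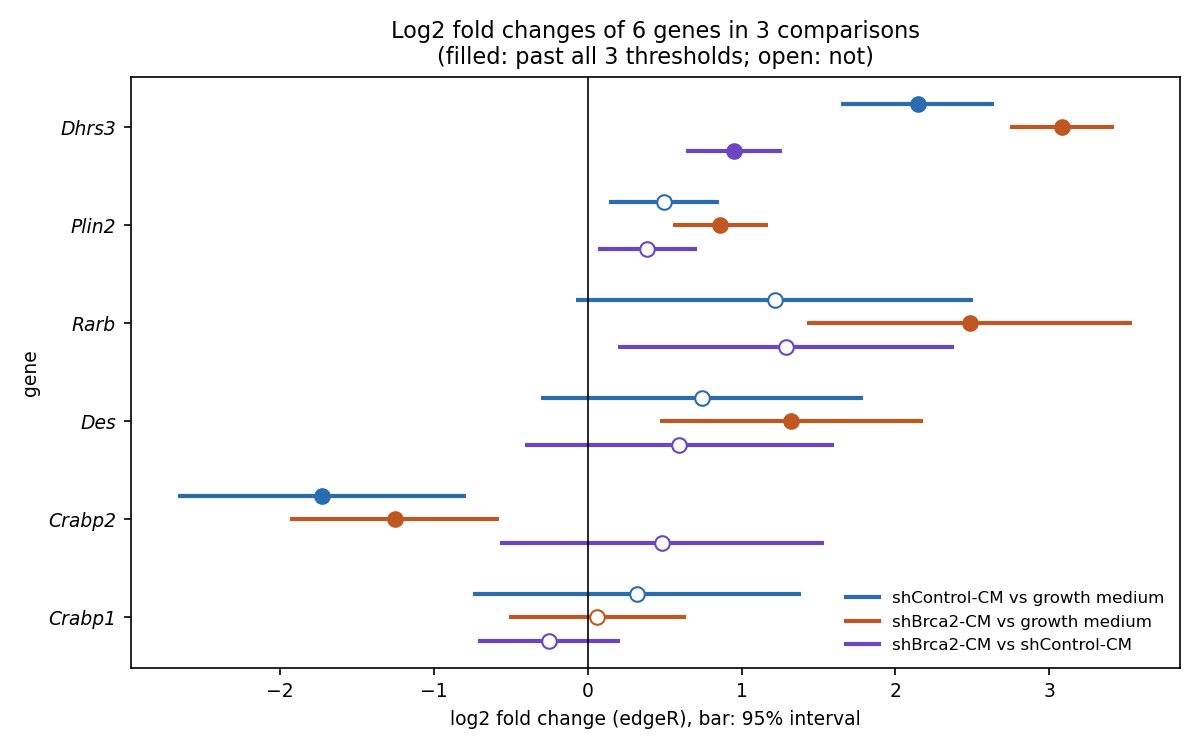
The horizontal axis gives the log2 fold change fitted by edgeR and the bars its 95% interval, for 6 genes on the vertical axis and 3 comparisons in colours; filled points passed all 3 thresholds and open points did not. Dhrs3 is filled in all 3 comparisons (0.95, 2.15 and 3.08), Crabp2 lies left of 0 in both comparisons with growth medium, and the intervals of Rarb and Des are wide.

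Rarb encodes retinoic acid receptor beta, a receptor that is itself switched on by retinoic acid through the pair of half-sites shown above. Its level was low, and the libraries held 8 and 8 counts with growth medium, 5, 2 and 8 with shControl-CM and 7, 8 and 8 with shBrca2-CM. Set against library size this was 1.39 and 1.72 CPM, 3.20, 1.93 and 5.43 CPM, and 10.1, 9.96 and 7.10 CPM. The raw counts were thus similar over the groups, while the totals they were divided by were not. The groups did not overlap in CPM, and the log2 fold change with shBrca2-CM against growth medium was 2.48 ± 0.53 SE (edgeR adjusted p = 1.08e-04, 95% interval 1.43 to 3.54). With shControl-CM it was 1.22 ± 0.58 SE (edgeR adjusted p = 0.134). Between the conditioned media it was 1.29 ± 0.50 SE (edgeR adjusted p = 0.272), with a 95% interval from 0.20 to 2.38 before adjustment. In thinned libraries Rarb had 7, 7 and 3 counts with shBrca2-CM, 3, 0 and 4 counts for shControl-CM, and 1 and 0 counts for growth medium. The log2 fold change with shBrca2-CM against growth medium was then 3.23 (edgeR adjusted p = 0.0149), but the mean normalized count was under its threshold, and the call was lost.

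Of the 6 receptors for retinoic acid and rexinoids, all were analysed. Against growth medium 2 rose and 1 fell with shControl-CM, and 2 rose with shBrca2-CM. None of the 5 tested was called between the conditioned media by edgeR or by DESeq2's likelihood ratio test, and 1 of them, Rarb, had an unadjusted p under 0.05. Rxrb, a partner of the retinoic acid receptors, rose with both media (log2 fold changes 0.74 ± 0.18 SE and 0.94 ± 0.15 SE). Rxra was called with shControl-CM at 0.59 ± 0.15 SE. It measured 0.45 ± 0.16 SE with shBrca2-CM and was not called. Rara, the receptor found in most tissues, fell by 0.76 on the log2 scale with shControl-CM and measured -0.33 ± 0.19 SE with shBrca2-CM. Rarg was not called in any of the comparisons (0.15, 0.33 and 0.19).

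Textbook targets of retinoic acid moved in both directions. Of 15 such genes 10 were analysed, with 2 higher and 4 lower with shControl-CM than with growth medium, and 3 higher and 2 lower with shBrca2-CM. Between the conditioned media 3 of the 8 tested were higher with shBrca2-CM, Dhrs3 and Tgm2 among them, and 1, Rarres2, was lower. The median log2 fold change of the 8 was 0.68, against 0.03 over all genes. Tgm2, a transglutaminase that crosslinks proteins, measured 137, 121 and 98.5 CPM in shBrca2-CM, against 66.6, 73.4 and 79.5 CPM in shControl-CM and 109 and 115 CPM where growth medium was kept. Its log2 fold change was 0.72 ± 0.17 SE between the conditioned media (edgeR adjusted p = 0.0587) and -0.63 ± 0.17 SE with shControl-CM against growth medium. Rarres2 encodes the secreted chemerin precursor. It measured 25.9 and 26.9 CPM with growth medium, 520, 697 and 829 CPM with shControl-CM and 119, 153 and 204 CPM with shBrca2-CM. The change between the conditioned media was -2.06 ± 0.21 SE (edgeR adjusted p = 2.49e-04), and Rarres2 shared the order of Rbp4. Rarres1 fell by 3.56 and 3.22 on the log2 scale against growth medium. Rarb, Dhrs3 and Crabp2 are themselves among these targets and are counted in the list.

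**Figure D5:**
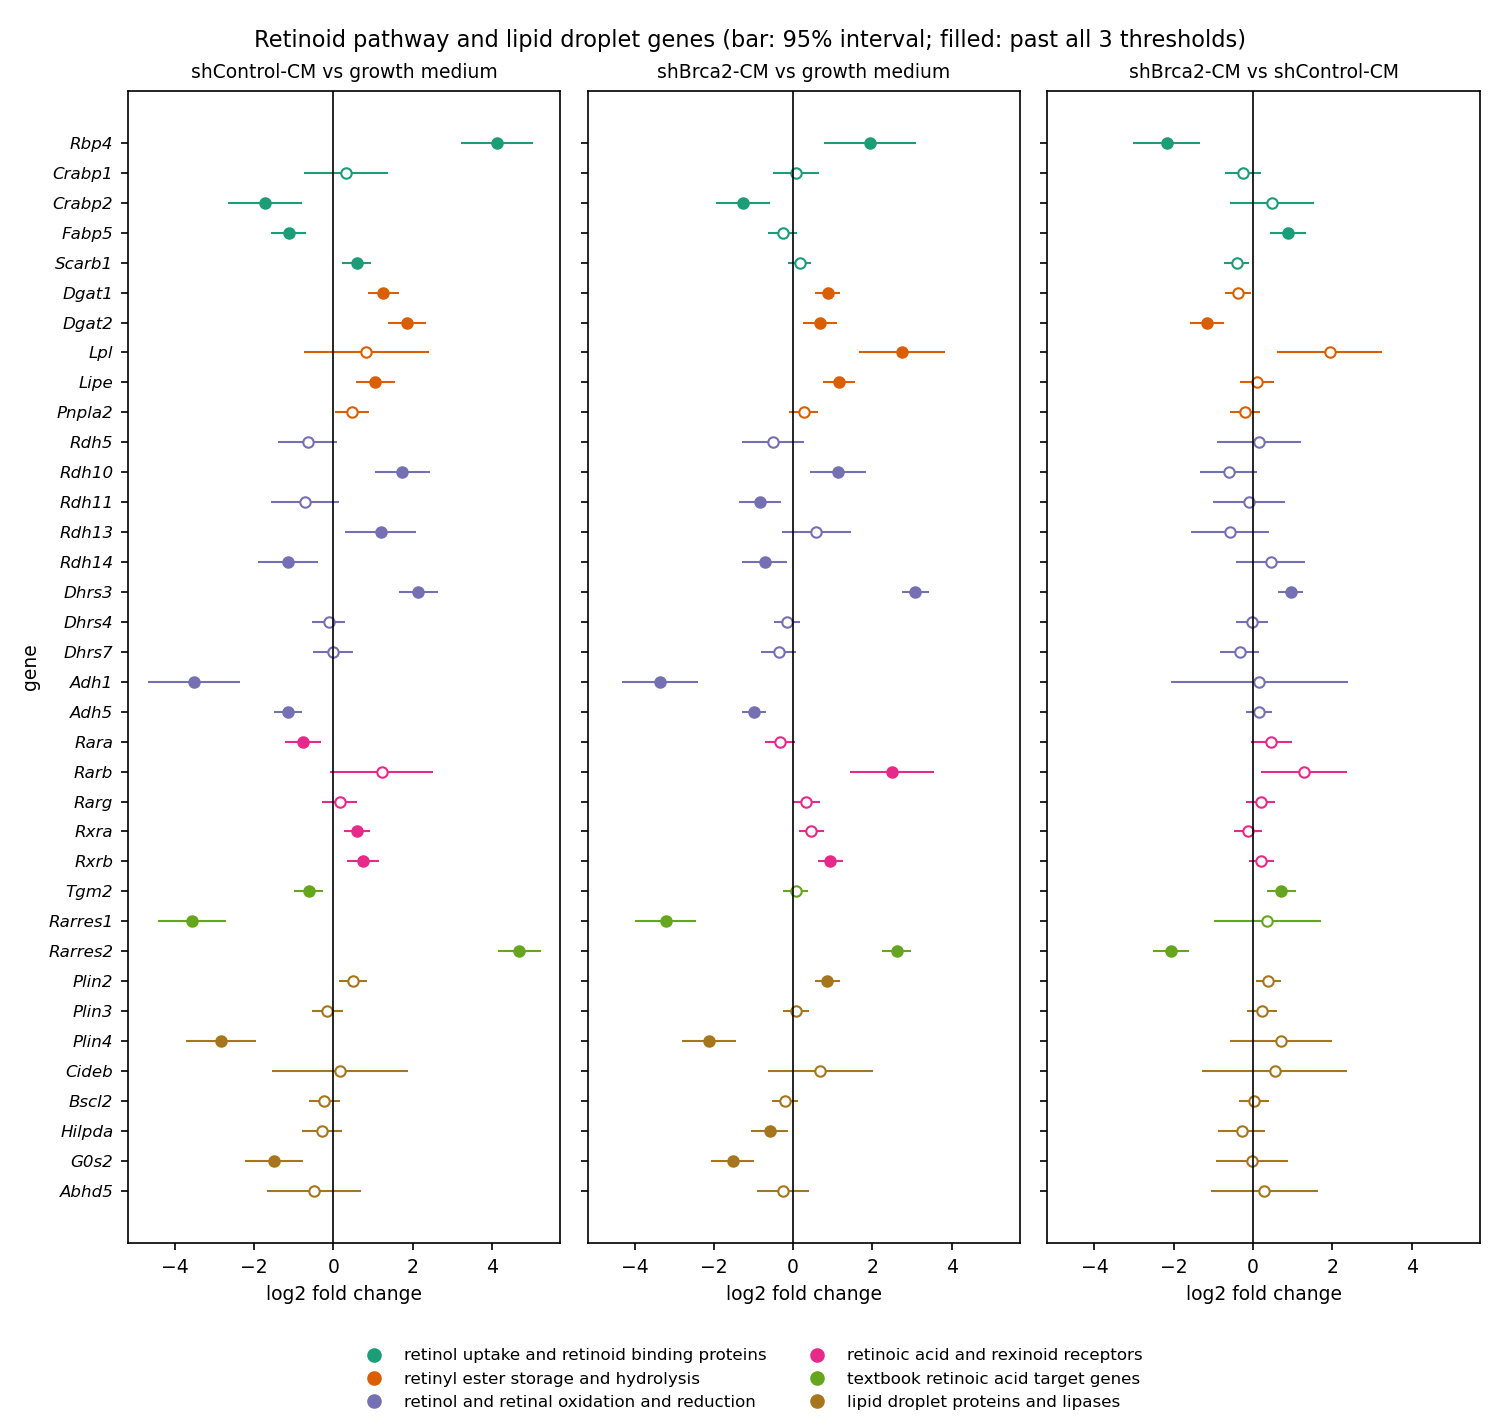
Each row is one of 36 genes of the retinoid pathway and of lipid droplets, coloured by role, and each panel is one comparison, with the edgeR log2 fold change on a shared horizontal axis and bars for 95% intervals; filled points passed all 3 thresholds. Dhrs3 lies right of 0 in all 3 panels, whereas Rbp4 and Rarres2 lie right of 0 against growth medium and left of 0 between the conditioned media (-2.18 and -2.06).

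Plin2 encodes perilipin 2, which coats lipid droplets. It measured 91.4 and 98.2 CPM with growth medium, 127, 129 and 147 CPM with shControl-CM (134 ± 10.8, SD, n = 3) and 192, 177 and 151 CPM with shBrca2-CM (173 ± 21.0, SD, n = 3). Values did not overlap between any groups, although the lowest library with shBrca2-CM was close to the highest with shControl-CM. With shBrca2-CM the log2 fold change against growth medium was 0.86 ± 0.15 SE (edgeR adjusted p = 6.56e-06). With shControl-CM it was 0.496 ± 0.16 SE (edgeR adjusted p = 0.0396), just under the fold threshold of 0.5, and it was not called. In shBrca2-CM against shControl-CM it was 0.39 ± 0.15 SE (edgeR adjusted p = 0.262), with a 95% interval from 0.06 to 0.71 before adjustment.

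Of 19 lipid droplet proteins and lipases 13 were analysed, and they did not move together. With shControl-CM against growth medium 3 rose (Lipe, Dgat1 and Dgat2) and 2 fell, and with shBrca2-CM 4 rose, Plin2 among them, and 3 fell. Plin4, another droplet coat protein, fell by 2.83 and 2.12 on the log2 scale, and G0s2, an inhibitor of the lipase that starts triglyceride breakdown, fell by 1.50 and 1.52. Plin3 measured -0.15 ± 0.18 SE and 0.08 ± 0.17 SE and was not called. Dgat2 was the only gene of this list called between the conditioned media.

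Des encodes desmin, an intermediate filament protein used to recognise stellate cells. Its counts were 18 and 23 with growth medium, 6, 10 and 11 with shControl-CM and 8, 10 and 8 with shBrca2-CM. This was 3.13 and 4.94 CPM, 3.84, 9.66 and 7.47 CPM, and 11.6, 12.4 and 7.10 CPM. The shBrca2-CM libraries lay above both growth medium libraries, and the shControl-CM libraries overlapped with both other groups. The log2 fold change with shBrca2-CM against growth medium was 1.32 ± 0.43 SE (edgeR adjusted p = 0.0104), and with all libraries thinned to the smallest total it was 0.99 (edgeR adjusted p = 0.231). With shControl-CM it was 0.74 ± 0.47 SE (edgeR adjusted p = 0.252), and between the conditioned media 0.60, with a 95% interval from -0.41 to 1.60.

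Against growth medium, other markers of quiescent stellate cells and their filaments did not move together with Des. Of 15 such genes 11 were analysed. Their median log2 fold change against growth medium was -0.31 with shControl-CM and -0.43 with shBrca2-CM, where it was -0.10 and -0.05 over all genes. For the 9 tested between the conditioned media it was 0.29, against 0.03 over all genes. With shControl-CM against growth medium 2 rose and 4 fell, and with shBrca2-CM 3 rose, Des among them, and 3 fell. Vim, the main filament protein of mesenchymal cells, measured 3396 and 4115 CPM with growth medium. It fell by 3.38 on the log2 scale with shControl-CM and by 2.68 with shBrca2-CM. Nes, a further filament protein, measured -0.31 ± 0.18 SE and -0.04 ± 0.16 SE and was not called. Hgf, a growth factor made by stellate cells, and Fabp4, a fatty acid carrier, rose with both media, by 1.35 and 1.80 with shControl-CM and by 1.53 and 1.73 with shBrca2-CM. Ncam1 fell by 1.55 and 1.72. Pparg, a regulator of lipid storage, had 34 and 29 counts with growth medium and 3 or fewer in every library with shControl-CM, at least 2.09-fold lower. With shBrca2-CM it had 3, 1 and 6 counts and was not called.

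Against growth medium, activation markers of stellate cells went mostly the other way from Dhrs3 and Plin2. All 12 were analysed, and 11 of 12 fell and 1 rose with each conditioned medium. The median log2 fold change was -2.93 with shControl-CM and -2.09 with shBrca2-CM. In shBrca2-CM against shControl-CM it was 0.64, against 0.03 over all genes, which is the direction of Dhrs3. Acta2, smooth muscle actin, was at least 9.06-fold and 6.05-fold lower. Timp1, an inhibitor of matrix proteases, was the gene that rose (1.62 and 0.60). With shBrca2-CM 2 of the 12 were higher than with shControl-CM (Postn and Myl9) and Timp1 was lower (-1.005 ± 0.14 SE, edgeR adjusted p = 0.0023).

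Across the 8 libraries, the levels of Dhrs3, Rarb, Plin2 and Des varied in the same direction, with Pearson's r of log2 CPM of 0.93 for Dhrs3 with Plin2, 0.94 for Rarb with Plin2, 0.87 for Dhrs3 with Rarb, 0.85 for Des with Plin2, 0.73 for Des with Rarb and 0.71 for Des with Dhrs3. These values are descriptions over libraries that fall into 3 groups of different depth, and carry no test. Crabp2 had an r of -0.65 with Dhrs3, and Crabp1 had an r of 0.04 with Crabp2. Over 7915 other genes with a mean of at least 10 CPM, the genes most like Dhrs3 were Eif2b3 (r = 0.99) and Abca2 (0.98), and those most like Plin2 were Las1l and Rpl31 (0.97 each). Those most like Rarb were Sfi1 (0.97) and Dennd2a (0.96), and those most like Des were Echdc2 (0.95) and Aebp1 (0.94), over 7916 genes. Acd (0.95) and Bok (0.93) were most like Crabp2, and Atp5j (0.92) and Bri3 (0.89) most like Crabp1.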

How the data were processed

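The values are whole-number counts that the authors deposited for 12160 genes, from MARS-seq libraries and without normalization. The submitters' processing notes name bcl2fastq, cutadapt, STAR 2.4.2a, HTSeq, DESeq2 and the mouse build mm10, without roles. The treatment of molecular identifiers is not given in the sources used here, so that counts may include copies of one molecule. Samples were grouped by their titles and recorded treatment. A further column (1 in all), named as a DMEM library, fitted no sample record and was not used. Its values were therefore not set beside the growth medium libraries, on which the changes of Crabp1 and Crabp2 depended.

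Each pair of groups was fitted alone in R 4.3.3 with edgeR 4.0.16 (TMM, genes with at least 10 counts over the libraries fitted, quasi-likelihood F test), the normalized count being scaled to the geometric mean of effective library sizes. Errors of log2 fold changes are the fold change divided by the square root of F, and 95% intervals follow from them. They cover the spread between domes, which may be technical. A group with 3 or fewer counts in every library was taken as at the floor, and folds against it are lower bounds from the highest floor of its libraries. The test was tried on simulated counts. Alternatives were DESeq2 1.42.0, other scalings, filters, thresholds, fits and depths, and each library left out in turn. Replicate chi-square tests found no library deposited more than once.

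All 9 genes and fixed genes of the same steps were named whatever their values (an exception is not reported here), with up to 4 called genes of largest change per list and comparison; genes beside them in counts and overlapping genes were named after their values were seen. The genes and lists were chosen with earlier results of these data known. Likeness was Pearson's r of log2 CPM (prior count 2) for genes with at least 50 counts in all. Promoter windows came from RefSeq tables.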

Additional observations from a re-analysis of the deposited data

How the results depend on the processing

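Dhrs3 kept its direction under every alternative run, at 0.84 to 1.06 between the conditioned media, 1.91 to 2.43 with shControl-CM and 2.83 to 3.38 with shBrca2-CM against growth medium, and lost its call only between the conditioned media at an adjusted p under 0.05 and a log2 fold change over 1, where 0 of the 6 genes and 130 of all genes were called (against growth medium 2375 and 2185 genes, and 2 and 4 of the 6, as Plin2 at 0.86 lost its call with shBrca2-CM). With libraries thinned to the smallest total, 2919 genes and 3 of the 6 were called in shControl-CM against growth medium (Plin2 added at 0.56), whereas in shBrca2-CM 2 of the 6 were, as Des (0.99) and Crabp2 (-0.95) lost their calls on p and Rarb (3.23) on its mean count alone. With all 3 groups in one fit, 4 of the 6 were called with shControl-CM, Rarb (1.22) and Plin2 (0.50) being added. Without single libraries, the counts of genes called were 128 to 976 between the conditioned media (175, 128 and 160 without each shBrca2-CM library, 976 and 169 without the first and second shControl-CM library), 1901 to 5157 with shControl-CM (1901 and 2269 without each growth medium library) and 3903 to 4510 with shBrca2-CM. Of the 6 genes, 1, 2 to 4 (4 without the first shControl-CM library, with Des and Plin2 added) and 5 to 6 were called. The call of Crabp1 with shBrca2-CM against growth medium turned from none to lower (-0.68) without the first growth medium library and to higher (1.51) without the second, and Crabp2 lost both calls without the second. Same-numbered libraries of the conditioned media had correlated deviations of -0.048, 0.025 and 0.139, and differently numbered ones ranged from -0.197 to 0.204. These values gave no sign of pairing by number, but so few libraries cannot exclude it. With the replicate block 311, 4512 and 3850 genes and 1, 3 and 5 of the 6 were called. Crabp1 was added at 0.72 with shControl-CM against growth medium. With total counts in place of TMM the share of calls that were higher with shBrca2-CM than with shControl-CM was 67.6% in place of 50.4%, and the median of all genes 0.14 in place of 0.03 (with shControl-CM against growth medium -0.21 in place of -0.10); Dhrs3 stayed called. DESeq2's likelihood ratio test called 283, 3502 and 3661 genes and 1, 2 and 5 of the 6. The causes of these shifts were not tested. At this depth Rarb had at most 8 counts in any library.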
